A study of Mus musculus with 28 samples.

Results

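The 58 genes described here are the semaphorins, their plexin and neuropilin receptors, the ephrins and their Eph receptors, and the Slit ligands with the receptors Robo1 and Robo2, in mouse medulloblastoma, glioma and normal brain. They were chosen by name: every gene whose only symbol in the array annotation starts with Sema, Plxna, Plxnb, Plxnc, Plxnd, Epha, Ephb, Efna or Efnb, with Slit1, Slit2, Slit3, Robo1, Robo2, Nrp1 and Nrp2. That rule took 20 semaphorins, 10 plexin names, 2 neuropilins, 8 ephrins, 13 Eph receptors, 3 Slit genes and 2 Robo genes out of 18193 genes on the array. One of the plexin names, Plxna4os1, is an RNA antisense to Plxna4. Each gene was read from its brightest probe set, and 54 of the 58 were bright enough to be tested.

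These proteins steer axons and migrating cells. Semaphorins are secreted or membrane-bound ligands that mostly repel, and plexins are their signalling receptors. The secreted class 3 semaphorins bind a neuropilin, which pairs with a plexin of the A group. Ephrins of the A group are held in the membrane by a lipid anchor and those of the B group span it, and both signal on contact with Eph receptor tyrosine kinases on a neighbouring cell. Slit proteins are secreted and repel growing axons and migrating neurons through Robo receptors. In the developing cerebellum, whose granule neuron precursors give rise to a class of medulloblastoma, members of these families guide granule cell migration. In adult brain many of them stay on in neurons and glia.

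The arrays covered 10 medulloblastomas, 6 gliomas and 12 normal brains. All mice but 1 carried hGFAP-Cre, a recombinase driven by the human GFAP promoter and active in neural progenitors and in glia, and were labelled p53-null. The labels do not say in which cells p53 or Rictor was deleted, so null stands here for the label. The genotypes differed in Rictor, without which the kinase complex mTORC2 does not form: the medulloblastomas comprised 5 Rictor-null, 2 Rictor-heterozygous and 3 p53-null-only tumours, and the gliomas 1 Rictor-null, 4 Rictor-heterozygous and 1 p53-null-only tumour. The normal brains comprised 5 Rictor-null, 5 Rictor-heterozygous, 1 p53-null-only and 1 wild-type sample. The labels used here give neither the age of the mice nor the brain region of the normal samples. Tumour pieces held at least 70% tumour cells according to the labels. Values are intensities of the authors, scaled so that each array has the same trimmed mean, and differences are of log2(intensity + 6.3), which understates the change of dim genes. A positive difference means higher in the first-named tissue, and levels of different genes are not set against each other. Arrays carry the letter and number of their titles (A6 or C5, for example), and a code found in both a tumour and a normal brain is not stated to mark 1 animal. Separate animals are not stated in the labels either, so p-values weigh a difference only against the scatter of the arrays at hand, part of which may be technical. These were bulk tissues, in which fewer cells of a type and less RNA per cell cannot be told apart.

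Several members are neighbours in the genome. In the RefSeq order of the mouse assembly GRCm38.p6, Sema3d and Sema3a are adjacent on chromosome 5, with 0 protein-coding genes between them, and Sema3e follows after 3 more genes. Robo1 and Robo2 are likewise adjacent on chromosome 16, with Epha3 12 protein-coding genes from Robo1 and Epha6 4 genes from Epha3. The ephrin genes Efna1, Efna3 and Efna4 lie side by side on chromosome 3. Promoter windows of RefSeq, from 250 bases before to 50 bases after the annotated start (GRCm38.p6), were available for 50 of the 58 members. The 4 shown belong to genes among those with the largest differences between the tumour types: Sema3d and Plxnb3, high in glioma, and Epha3 and Sema7a, high in medulloblastoma. Capitals mark the letters ACAAAG or their reverse complement CTTTGT, the core recognised by SOX factors, and CAGCTG, an E-box bound by basic helix-loop-helix factors that reads the same on both strands. The windows are chr5:12382916-12383215 (plus strand) for Sema3d, chrX:73756853-73757152 (plus) for Plxnb3, chr16:63864126-63864425 (minus) for Epha3 and chr9:57939862-57940161 (plus) for Sema7a.

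Sema3d: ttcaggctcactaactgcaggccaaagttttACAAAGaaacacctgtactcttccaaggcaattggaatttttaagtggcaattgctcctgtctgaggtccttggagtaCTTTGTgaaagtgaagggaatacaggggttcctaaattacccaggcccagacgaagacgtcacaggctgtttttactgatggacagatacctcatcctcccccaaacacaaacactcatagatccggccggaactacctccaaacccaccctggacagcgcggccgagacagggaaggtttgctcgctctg
Plxnb3: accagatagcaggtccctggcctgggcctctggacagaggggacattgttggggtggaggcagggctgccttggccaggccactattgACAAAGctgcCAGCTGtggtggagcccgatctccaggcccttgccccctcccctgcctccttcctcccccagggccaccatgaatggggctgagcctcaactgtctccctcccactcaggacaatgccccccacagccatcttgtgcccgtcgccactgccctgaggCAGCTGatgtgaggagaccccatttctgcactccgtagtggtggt
Epha3: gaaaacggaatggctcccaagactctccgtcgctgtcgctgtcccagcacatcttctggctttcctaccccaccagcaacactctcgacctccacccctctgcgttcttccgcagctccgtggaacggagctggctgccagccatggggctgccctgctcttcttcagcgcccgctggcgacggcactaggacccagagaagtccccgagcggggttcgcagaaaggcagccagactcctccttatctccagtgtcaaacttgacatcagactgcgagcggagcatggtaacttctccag
Sema7a: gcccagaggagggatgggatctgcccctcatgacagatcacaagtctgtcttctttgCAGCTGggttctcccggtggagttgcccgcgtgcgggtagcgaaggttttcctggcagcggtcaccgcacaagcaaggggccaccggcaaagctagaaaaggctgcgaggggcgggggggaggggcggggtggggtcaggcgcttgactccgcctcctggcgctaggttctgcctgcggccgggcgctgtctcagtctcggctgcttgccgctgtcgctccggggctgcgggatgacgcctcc

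Sema3d held the SOX core 219 bases before its start on the plus strand and again 141 bases before it on the minus strand. Plxnb3 held it 162 bases before the start, followed without overlap by an E-box at 152 bases before it, and had another E-box from base 6 of the transcript. Sema7a held 1 E-box, 193 bases before its start. Epha3 held neither set of letters in this window, which says nothing of the factors that act on it. The SOX core was present in 15.2% of the 66 windows of members (10 windows, 1 in each of 10 genes) and in 18.7% of all 32851 windows in the table. The E-box was present in 15.2% of members' windows and in 16.3% of all windows. A match of this kind describes the sequence alone, as binding was not measured here.

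Marker genes tracked the labels with several exceptions. The summed intensity of 5 granule precursor markers (Atoh1, Barhl1, Gli1, Mycn and Ptch1) ran from 2422 to 6994 in medulloblastomas, 706 to 1156 in gliomas and 379 to 1489 in normal brains. The sum of 4 oligodendrocyte precursor markers (Pdgfra, Olig2, Sox10 and Cspg4) ran from 518 to 2612 in medulloblastomas, 5502 to 8832 in gliomas and 189 to 1325 in normal brains. That of 4 markers of mature neurons (Syt1, Snap25, Stmn2 and Rbfox3) was 1456 to 9208 in medulloblastomas, 201 to 3367 in gliomas and 11050 to 13800 in normal brains, and no listed marker that was found on the array read 0. Single genes weighed heavily in these sums. Pdgfra gave 2019 of the 2612 in medulloblastoma C4, and of the 4 precursor markers 1 was called higher and 1 lower in medulloblastomas against normal brain. Ptch1 gave 965 of the granule precursor sum of 1136 in glioma B1 and 1368 of 1489 in normal brain Z2. Normal brains B2, C5 and Z2 read 1740, 4153 and 4918 for Gabra6, which encodes a GABA receptor subunit typical of granule neurons in the cerebellum, against at most 116 in the other normal brains. It also reached 1638 in medulloblastoma B6 and 1324 in medulloblastoma C6, in which Atoh1 was lowest (37.5), and 675 and 1014 in gliomas B2 and B7. Normal brain C2 read 176 for Atoh1 and 275 for Mki67, a proliferation marker. Counts of called members are given with and without these arrays.

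Against normal brain, medulloblastomas had 16 of the 54 tested members higher and 24 lower at a limma adjusted p under 0.05, and 14 were not called. Of all 13931 genes tested, 64.2% were called (32.2% higher and 32% lower), so most genes passed in this comparison and the members' calls were not rare against them. The median log2 difference was −0.45 over the 54 members and 0.01 over all genes tested. Gliomas had 12 members higher, 24 lower and 18 not called against normal brain, where 53.9% of all genes were called (28.4% higher and 25.5% lower). The median was −0.65 for members and 0.05 for all genes. Between the tumours, 17 members were higher and 7 lower in medulloblastoma than in glioma, with 30 not called and 28.4% of all genes called (13.6% higher and 14.8% lower). The first pair of comparisons share the normal brains, so each is given with its own values. Of the called members 28 changed over 2-fold in medulloblastomas against normal brain (30.6% of all genes did), 26 in gliomas against normal brain (25.7%) and 19 in medulloblastomas against gliomas (12.4%).

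Of the 4 members too dim to test, Epha1, Ephb4 and Plxna4os1 stayed at or below 30 on every array. Slit3 ran from 0.6 to 12.5 (median 2.7) in medulloblastomas, 0.6 to 1.8 (median 1.05) in gliomas and 2.1 to 38.2 (median 14.4) in normal brains. With all 58 members tested and no filter on dim genes, 16 were higher and 25 lower in medulloblastomas against normal brain (25.9% of all genes in each direction), 10 higher and 25 lower in gliomas against normal brain (22.1% and 20.2%), and 17 higher and 7 lower in medulloblastomas against gliomas (10.2% and 11.1%). Without the normal brains B2, C5 and Z2 the tested members gave 15 higher and 24 lower, 13 higher and 30 lower, and 19 higher and 8 lower in the same 3 comparisons. Without normal brain C2 they gave 16 and 24, 12 and 25, and 17 and 7. Without medulloblastoma C6 they gave 17 and 23, 12 and 24, and 17 and 8, and without medulloblastoma B6 15 and 24, 12 and 24, and 15 and 6. Leaving out glioma B2 gave 16 and 24, 10 and 27, and 19 and 6, and leaving out glioma B7 gave 16 and 24, 11 and 24, and 16 and 8. The shares of all genes called without these arrays are not given here. Changes in these counts are therefore not read as particular to the members.

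**Figure D1:**
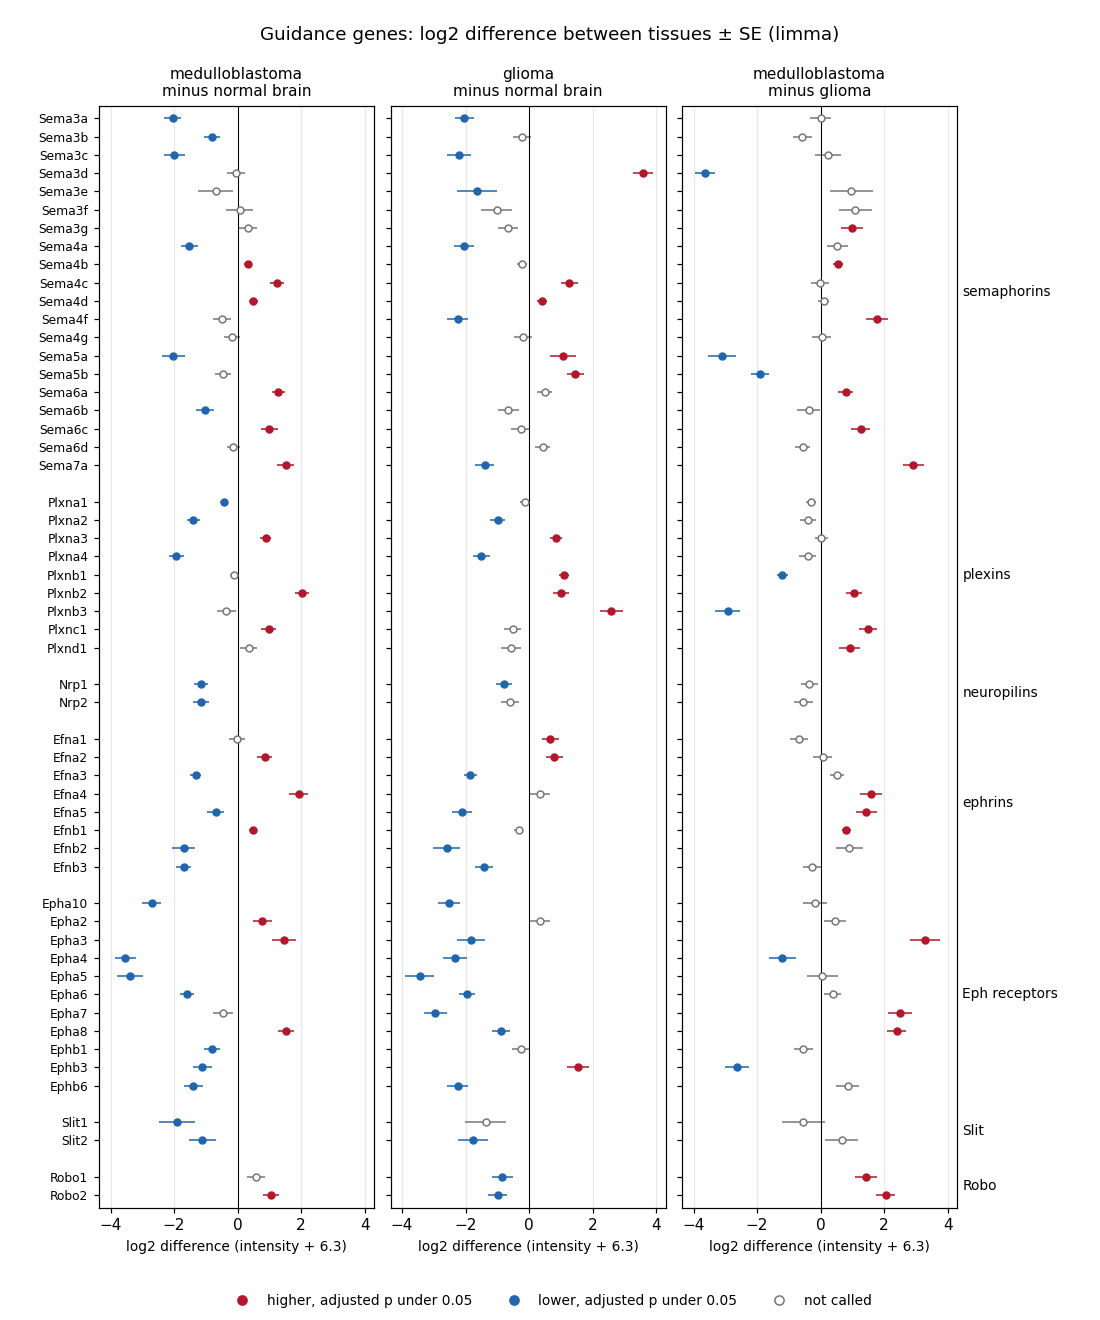
Log2 difference (of intensity plus 6.3) with its standard error for each of the 54 tested members, by family, in 3 comparisons of tissues fitted with limma: filled red points were higher and filled blue points lower in the first-named tissue at an adjusted p under 0.05, and open grey points were not called. Sema3d and Plxnb3 stand far right in glioma minus normal brain (3.59 and 2.58) and far left in medulloblastoma minus glioma (−3.64 and −2.93), while Epha4 and Epha5 lie far left in both comparisons with normal brain.

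The secreted class 3 semaphorins went separate ways in glioma. Sema3d, a repellent for axons and neural crest cells, was the member with the largest rise. In gliomas it read 1069 in A4, 346 in B1, 521 in B2, 1526 in B3, 694 in B7 and 347 in C3, against 23.4 to 103 (median 38.5) in medulloblastomas and 22.9 to 89.8 (median 45.8) in normal brains. Every glioma lay above every other array. The log2 difference was 3.59 (SE 0.31, limma adjusted p = 1.21e-09) in gliomas against normal brain and −3.64 (SE 0.33, limma adjusted p = 5.08e-09) in medulloblastomas against gliomas. Medulloblastomas against normal brain gave −0.05 (limma adjusted p = 0.89), and the other Sema3d probe set gave the same calls, with 2.28 in gliomas against normal brain.

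Its chromosomal neighbour Sema3a, the ligand of Nrp1 that collapses growth cones, fell in both tumours. It ran from 13.4 to 77.8 (median 31.6) in medulloblastomas, 12.2 to 104 (median 31.1) in gliomas and 126 to 209.9 (median 161) in normal brains. Neither tumour overlapped normal brain, and the tumours overlapped each other throughout. The log2 difference was −2.04 (SE 0.27, limma adjusted p = 2.37e-07) in medulloblastomas and −2.04 (SE 0.30, limma adjusted p = 3.7e-06) in gliomas against normal brain. The second Sema3a probe set kept the call in medulloblastomas (−0.67) but not in gliomas (−0.57, limma adjusted p = 0.15). Sema3c, which attracts or repels according to the cell it meets, fell to 13.7 to 162 (median 59.8) in medulloblastomas and 11.1 to 117 (median 48.8) in gliomas, against 66.7 to 435 (median 207) in normal brains. The ranges overlapped at the low end of normal brain, where the wild-type Z2 was lowest, and medulloblastoma C6 (162) reached furthest into it. The differences from normal brain were −1.99 (SE 0.34, limma adjusted p = 1.27e-05) for medulloblastomas and −2.21 (SE 0.39, limma adjusted p = 3.22e-05) for gliomas. Sema3e, which signals through Plxnd1 without a neuropilin, fell in gliomas by 1.64 on the log2 scale (limma adjusted p = 0.0337), with a wide range of 4.2 to 292 (median 65.5) against 28.8 to 216 (median 175) in normal brains. Sema3b was lower in medulloblastomas against normal brain at −0.81 (limma adjusted p = 0.00586). Sema3g was higher in medulloblastomas than in gliomas at 0.98 (limma adjusted p = 0.0321), and Sema3f, the ligand of Nrp2, was called in none of the 3 comparisons.

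The co-receptors of the class 3 ligands fell as well. Nrp1, which also binds the vascular growth factor VEGF, averaged 140 ± 33.4 in medulloblastomas (SD, n = 10), 194 ± 71.6 in gliomas (n = 6) and 311 ± 132 in normal brains (n = 12), at −1.14 (limma adjusted p = 5.11e-05) in medulloblastomas and −0.79 (limma adjusted p = 0.00852) in gliomas against normal brain. Only the medulloblastoma call was also made with the second of its 4 probe sets. Nrp2 was lower in medulloblastomas at −1.15 (limma adjusted p = 0.000242), and gliomas against normal brain gave −0.61 (limma adjusted p = 0.0752). Between the tumours neither neuropilin was called.

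Among the membrane-bound semaphorins, both class 5 members were highest in glioma. Sema5a, a transmembrane ligand of Plxnb3, read 520 in glioma A4, 86 in B1, 94.3 in B2, 350.2 in B3, 398 in B7 and 111 in C3. It ran from 2.9 to 82.4 (median 14.5) in medulloblastomas and 67.2 to 128 (median 88.4) in normal brains. The lowest glioma lay just above the highest medulloblastoma, C6, and gliomas A4, B3 and B7 stood well above all normal brains while the other 3 lay within their range. The log2 difference was −3.09 (SE 0.44, limma adjusted p = 5.22e-06) in medulloblastomas against gliomas, −2.02 (SE 0.36, limma adjusted p = 2.17e-05) in medulloblastomas against normal brain and 1.07 (SE 0.41, limma adjusted p = 0.0298) in gliomas against normal brain. The second Sema5a probe set gave 0.89 in that last comparison, with a limma adjusted p of 0.0606. Sema5b, a repellent for cortical axons, ran from 11.7 to 73.9 (median 16.3) in medulloblastomas, 41.9 to 147 (median 88.2) in gliomas and 11.3 to 41.7 (median 27.4) in normal brains. Every glioma lay above every normal brain, though narrowly for B2, and medulloblastoma A6 (73.9) was the only medulloblastoma within the range of the gliomas. The differences were 1.45 (SE 0.27, limma adjusted p = 7.64e-05) in gliomas against normal brain and −1.91 (SE 0.29, limma adjusted p = 1.55e-05) in medulloblastomas against gliomas.

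Sema7a, anchored to the membrane by a lipid and known to signal through Plxnc1 and integrins, was highest in medulloblastoma. It ran from 244 to 1616 (median 1113) in medulloblastomas, 79.4 to 188 (median 124) in gliomas and 167 to 750.3 (median 306) in normal brains. The medulloblastomas lay above all gliomas, and all of them but C1, C4 and C6 lay above all normal brains, of which C5 and Z2 were highest. The log2 difference was 2.92 (SE 0.33, limma adjusted p = 1.97e-07) in medulloblastomas against gliomas, 1.52 (SE 0.27, limma adjusted p = 2.42e-05) in medulloblastomas against normal brain and −1.40 (SE 0.31, limma adjusted p = 0.000474) in gliomas against normal brain. Its receptor Plxnc1 was also higher in medulloblastomas, with 275 to 898 (median 429), against 121 to 243 (median 166) in gliomas and 90.5 to 388 (median 234) in normal brains. The medulloblastomas did not overlap the gliomas (1.50 (limma adjusted p = 0.000216)), and the difference from normal brain was 0.98 (limma adjusted p = 0.000605).

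Of the class 6 semaphorins, ligands of A-group plexins, Sema6a guides migrating granule cells. It ran from 70.7 to 254 (median 97.1) in medulloblastomas, 34 to 94.4 (median 54.9) in gliomas and 22.2 to 64.8 (median 43.5) in normal brains. Every medulloblastoma lay above every normal brain, C6 highest, and the tumours overlapped. The difference was 1.28 (SE 0.20, limma adjusted p = 4.41e-06) in medulloblastomas against normal brain and 0.79 (limma adjusted p = 0.0161) against gliomas. This call rests on the brightest probe set, since the second gave −0.21 (limma adjusted p = 0.43). Sema6c averaged 28.8 ± 14.7 in medulloblastomas (SD, n = 10), 11.3 ± 10.9 in gliomas (n = 6) and 14.6 ± 10.8 in normal brains (n = 12), and was called higher in medulloblastomas than in either, and Sema6b was lower in medulloblastomas than in normal brain (−1.03). Sema6d averaged 575 ± 174 in medulloblastomas (SD, n = 10), 818 ± 229 in gliomas (n = 6) and 684 ± 297 in normal brains (n = 12), and was called in no comparison over all arrays.

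Class 4 semaphorins differed among themselves. Sema4f, a membrane ligand found at synapses, ran from 88.4 to 744 (median 139) in medulloblastomas, 14.4 to 101 (median 63.2) in gliomas and 202 to 488 (median 286) in normal brains. Every glioma lay below every normal brain. Medulloblastoma C6 stood alone at 744, and the other 9 ran up to 265. The difference was −2.25 (SE 0.33, limma adjusted p = 2.57e-06) in gliomas against normal brain and 1.77 (SE 0.35, limma adjusted p = 0.000337) in medulloblastomas against gliomas, read from a probe set that the array's maker marks as able to match other transcripts. Sema4c, the ligand of Plxnb2, rose in both tumours: it ran from 62.8 to 137 (median 93.5) in medulloblastomas, 34.6 to 184 (median 101) in gliomas and 17.1 to 71.5 (median 37.1) in normal brains. Medulloblastoma B4 alone lay below the highest normal brain, C5, and glioma B3 alone lay among the normal brains. The differences from normal brain were 1.24 (SE 0.23, limma adjusted p = 4.66e-05) for medulloblastomas and 1.26 (SE 0.27, limma adjusted p = 0.000264) for gliomas. Sema4a was lower in both, at −1.52 in medulloblastomas and −2.05 in gliomas against normal brain. Its probe set, like that of Sema3f, carries the same mark of possible matches to other transcripts as that of Sema4f. Sema4b was higher in medulloblastomas than in normal brain (0.33) and gliomas (0.55), and Sema4g was called nowhere. Sema4d has no settled direction: its brightest probe set was higher in medulloblastomas than in normal brain (0.50 (limma adjusted p = 0.00392)), whereas the second was lower at −1.42 (limma adjusted p = 2.09e-05). In gliomas against normal brain the brightest gave 0.40 (limma adjusted p = 0.0425) and the second −1.04 (limma adjusted p = 0.00412).

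**Figure D2:**
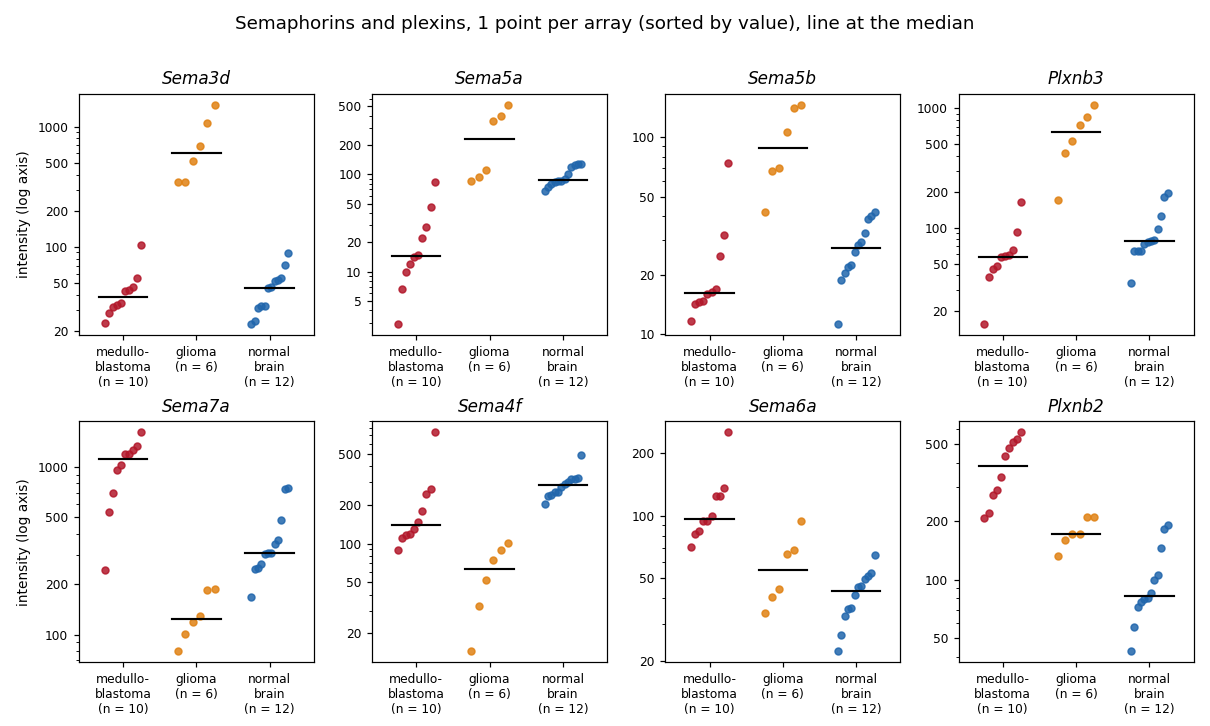
Intensity on a log axis of 6 semaphorins and 2 plexins, with 1 point per array and a line at the median of 10 medulloblastomas (red), 6 gliomas (orange) and 12 normal brains (blue). The gliomas stand apart above all other arrays for Sema3d (346 to 1526), and the medulloblastomas stand above all normal brains for Plxnb2 and, on its brightest probe set, Sema6a.

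The B-group plexins, the receptors of class 4 and class 5 semaphorins, each had a pattern of their own. Plxnb3, a receptor of Sema5a, read 533 in glioma A4, 1068 in B1, 169.9 in B2, 725 in B3, 847 in B7 and 424 in C3. It ran from 15.6 to 164 (median 57) in medulloblastomas and 34.2 to 195 (median 76.6) in normal brains. Glioma B2, lowest for both Plxnb3 and Sema5b, overlapped the brightest normal brains, and the other 5 gliomas lay above every other array. Log2 differences were 2.58 (SE 0.36, limma adjusted p = 1.32e-06) in gliomas against normal brain and −2.93 (SE 0.38, limma adjusted p = 1.52e-06) in medulloblastomas against gliomas, with 2.39 and −2.87 from the second probe set. Plxnb1, the receptor of Sema4d, ran from 68 to 163 (median 95.3) in medulloblastomas, 157 to 283 (median 246) in gliomas and 78.3 to 134 (median 102) in normal brains. Every glioma lay above every normal brain, and medulloblastoma A6 (163) alone reached the lowest glioma. The differences were 1.10 (SE 0.17, limma adjusted p = 6.85e-06) in gliomas against normal brain and −1.20 (SE 0.18, limma adjusted p = 1.5e-05) in medulloblastomas against gliomas.

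Plxnb2, the receptor of Sema4c that is needed for the proper growth and migration of granule precursors in mouse, had the largest rise in medulloblastoma on the log2(intensity + 6.3) scale, followed by Efna4 (1.92), a dim gene whose change that scale understates. Plxnb2 ran from 209 to 578 (median 386) in medulloblastomas, 132 to 209 (median 173) in gliomas and 42.6 to 191 (median 82.6) in normal brains. Every medulloblastoma lay above every normal brain, and the gliomas lay between, overlapping both. Log2 differences were 2.04 (SE 0.22, limma adjusted p = 8.44e-09) in medulloblastomas against normal brain, 0.99 (SE 0.25, limma adjusted p = 0.00141) in gliomas against normal brain and 1.05 (SE 0.26, limma adjusted p = 0.00346) in medulloblastomas against gliomas. Among the normal brains the highest Plxnb2 was in C5 (191).

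Plexins of the A group, which carry the signal of class 3 and class 6 semaphorins, were split. Plxna4, a partner of Nrp1 for Sema3a, ran from 5.9 to 38.6 (median 18) in medulloblastomas, 16 to 41.4 (median 21.9) in gliomas and 52.4 to 138 (median 86.6) in normal brains. Neither tumour overlapped normal brain, with −1.93 (limma adjusted p = 7.32e-08) for medulloblastomas and −1.51 (limma adjusted p = 3.33e-05) for gliomas. Plxna2, a receptor of Sema6a in granule cells, was lower at −1.39 in medulloblastomas and −0.99 in gliomas against normal brain. Plxna3 went the other way, at 0.88 in medulloblastomas and 0.86 in gliomas. Plxna1 was lower in medulloblastomas at −0.44 (limma adjusted p = 0.0044), and gliomas against normal brain gave −0.14 (limma adjusted p = 0.456). Plxnd1, a receptor of Sema3e prominent in blood vessels, was higher in medulloblastomas than in gliomas at 0.92 (limma adjusted p = 0.0374). Over the 9 tested plexins, 3 were higher and 3 lower in medulloblastomas against normal brain, 4 higher and 2 lower in gliomas against normal brain, and 3 higher and 2 lower in medulloblastomas against gliomas. Over all genes 32.2% were higher and 32% lower, 28.4% and 25.5%, and 13.6% and 14.8% in those comparisons, and nothing particular to plexins is read from their counts.

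Most Eph receptors were lower in the tumours: of 11 tested, 7 were lower and 3 higher in medulloblastomas against normal brain, and 8 were lower and 1 higher in gliomas. Over all genes 32% were lower and 32.2% higher in medulloblastomas, and 25.5% lower and 28.4% higher in gliomas. The receptors' median log2 difference was −1.11 in medulloblastomas and −1.96 in gliomas, against 0.01 and 0.05 over all genes. Epha4, a receptor that keeps corticospinal axons from crossing the midline, fell most in medulloblastomas. It ran from 14 to 85.4 (median 21.2) in medulloblastomas, 29.5 to 140.5 (median 65.6) in gliomas and 59.5 to 695 (median 441) in normal brains. Normal brains C5 (80.3) and Z2 (59.5) lay among the tumours, B2 (174) lay above them, and the other 9 normal brains read 312 or more. The difference was −3.53 (SE 0.34, limma adjusted p = 1.94e-09) in medulloblastomas and −2.33 (SE 0.39, limma adjusted p = 1.78e-05) in gliomas against normal brain. Medulloblastomas were also lower than gliomas at −1.20 (SE 0.42, limma adjusted p = 0.0305), but this call was lost without medulloblastoma B6 (−1.11) or any one of gliomas A4 (−0.93), B2 (−1.12) and C3 (−1.15), and with the second probe set (−0.88, limma adjusted p = 0.121).

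Epha5, which helps set topographic maps of axons, ran from 5.2 to 86.7 (median 21.8) in medulloblastomas, 2.7 to 88 (median 30.1) in gliomas and 33.2 to 575 (median 410) in normal brains. The wild-type brain Z2, at 33.2, lay among the tumours, and every other normal brain lay above them. The difference from normal brain was −3.39 (SE 0.40, limma adjusted p = 5.52e-08) in medulloblastomas and −3.44 (SE 0.46, limma adjusted p = 8.18e-07) in gliomas, and medulloblastomas against gliomas gave 0.05 (limma adjusted p = 0.952). Epha10, a receptor without kinase activity, was low in both tumours, at 1.2 to 28.9 (median 4.2) in medulloblastomas and 1.2 to 47.3 (median 6.1) in gliomas, against 33.7 to 143 (median 71.2) in normal brains. No medulloblastoma reached the lowest normal brain, and 1 glioma, B3, did. The differences were −2.71 (SE 0.31, limma adjusted p = 2.64e-08) and −2.53 (SE 0.35, limma adjusted p = 1.44e-06) for medulloblastomas and gliomas against normal brain. Epha6 and Ephb6, the last also without kinase activity, were lower too, at −1.58 and −1.39 in medulloblastomas and −1.96 and −2.25 in gliomas against normal brain. These 5 genes are ones whose normal brain values were lowest in Z2.

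Epha3, Epha7 and Epha8 separated the tumours. Epha3, a receptor of ephrin-A5, ran from 54.1 to 665 (median 212) in medulloblastomas, 2.9 to 34.1 (median 21.5) in gliomas and 41.8 to 136 (median 78.3) in normal brains. The gliomas lay below every medulloblastoma and every normal brain, and the medulloblastomas reached from within the normal range to 665. The difference was 3.29 (SE 0.47, limma adjusted p = 5.57e-06) in medulloblastomas against gliomas, 1.46 (SE 0.38, limma adjusted p = 0.00166) in medulloblastomas against normal brain and −1.83 (SE 0.44, limma adjusted p = 0.00099) in gliomas against normal brain. All 4 Epha3 probe sets were called higher in medulloblastomas than in gliomas, at 0.53 to 3.29. Epha8, another receptor of A-group ephrins, ran from 32.9 to 129 (median 84.8) in medulloblastomas, 2.2 to 20.6 (median 8.95) in gliomas and 10.1 to 66.1 (median 21.4) in normal brains. Medulloblastomas lay above all gliomas and overlapped only the top normal brains, Z2 (66.1) and C5 (47.2). The difference was 2.40 (SE 0.30, limma adjusted p = 9.62e-07) in medulloblastomas against gliomas, 1.52 (SE 0.25, limma adjusted p = 7.38e-06) in medulloblastomas against normal brain and −0.89 (limma adjusted p = 0.0105) in gliomas against normal brain.

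Epha7, a receptor that also occurs as a shortened form lacking the kinase, ran from 51.9 to 239 (median 104) in medulloblastomas, 4.4 to 45.4 (median 17.8) in gliomas and 68.1 to 265 (median 193) in normal brains. Gliomas lay below every other array. The difference was −2.96 (SE 0.36, limma adjusted p = 2.33e-07) in gliomas against normal brain and 2.50 (SE 0.39, limma adjusted p = 1.76e-05) in medulloblastomas against gliomas. Medulloblastomas against normal brain depended on the probe set: the brightest gave −0.46 (limma adjusted p = 0.212) and the other 3 gave −0.93, −3.39 and −2.23, each called. The 2 dimmest probe sets were not called between the tumours, at 0.53 and 0.73.

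Ephb3, a receptor of B-group ephrins, was the one Eph receptor that rose in glioma. It read 144 in glioma A4, 210.3 in B1, 78.6 in B2, 253 in B3, 152 in B7 and 175 in C3, against 3 to 110.1 (median 17.9) in medulloblastomas and 2.7 to 76.1 (median 48) in normal brains. Every glioma lay above every normal brain, narrowly for B2, and medulloblastoma A6 (110.1) alone lay within the glioma range. The difference was 1.54 (SE 0.35, limma adjusted p = 0.000606) in gliomas against normal brain, −2.64 (SE 0.37, limma adjusted p = 5.23e-06) in medulloblastomas against gliomas and −1.11 (limma adjusted p = 0.00268) in medulloblastomas against normal brain. Of the others, Epha2 was higher in medulloblastomas than in normal brain (0.78) and Ephb1 lower (−0.80).

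The ephrins had 3 members higher and 4 lower in medulloblastomas against normal brain, and 2 higher and 4 lower in gliomas, of 8 tested. With 32.2% of all genes higher and 32% lower in medulloblastomas, and 28.4% and 25.5% in gliomas, the counts of higher ephrins lay near the background. Efna4, a lipid-anchored ephrin, rose in medulloblastoma. It ran from 4 to 110.3 (median 60.4) in medulloblastomas, 7.5 to 17.9 (median 12.8) in gliomas and 1 to 13.3 (median 9.55) in normal brains. Medulloblastoma C6, at 4.0, lay among the normal brains, and the other 9 lay above every glioma and every normal brain. The difference was 1.92 (SE 0.29, limma adjusted p = 1.87e-06) against normal brain and 1.59 (SE 0.35, limma adjusted p = 0.00104) against gliomas. Its neighbours on chromosome 3 differed from it: Efna3 was lower in both tumours (−1.32 in medulloblastomas and −1.85 in gliomas against normal brain), and Efna1 was higher in gliomas (0.66 (limma adjusted p = 0.04)), with −0.02 (limma adjusted p = 0.942) in medulloblastomas against normal brain.

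Efnb2, a transmembrane ephrin found in neurons and in arterial endothelium, read 32.1 in glioma A4, 61.1 in B1, 371 in B2, 37.8 in B3, 42.9 in B7 and 37.9 in C3. It ran from 54.7 to 214 (median 114) in medulloblastomas and 159 to 745 (median 419) in normal brains. Glioma B2 alone lay within the normal range, and the other 5 gliomas lay far below it. The difference was −2.60 (SE 0.41, limma adjusted p = 7.3e-06) in gliomas and −1.70 (SE 0.36, limma adjusted p = 0.000167) in medulloblastomas against normal brain. Efnb3, a midline repellent bound by Epha4, was lower at −1.70 in medulloblastomas and −1.42 in gliomas. Efna5, a ligand of Epha3, was lower at −0.69 in medulloblastomas and −2.11 in gliomas, and higher in medulloblastomas than in gliomas at 1.43. Efnb1 was higher in medulloblastomas than in normal brain (0.49) and did not overlap the gliomas (0.81 (limma adjusted p = 0.000177)). Efna2 was higher in both, at 0.85 in medulloblastomas and 0.79 in gliomas.

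The Robo receptors, through which Slit proteins act, were both higher in medulloblastoma than in glioma. Robo2 ran from 25.3 to 71.1 (median 38.5) in medulloblastomas, 0.5 to 10.5 (median 5.3) in gliomas and 4.2 to 34.2 (median 15.7) in normal brains. Every medulloblastoma lay above every glioma. The difference was 2.05 (SE 0.30, limma adjusted p = 1.04e-05) in medulloblastomas against gliomas, 1.06 (SE 0.25, limma adjusted p = 0.000609) in medulloblastomas against normal brain and −0.99 (limma adjusted p = 0.00483) in gliomas against normal brain. Robo1 differed by 1.42 (limma adjusted p = 0.00285) in medulloblastomas against gliomas and by −0.85 (limma adjusted p = 0.0304) in gliomas against normal brain. For medulloblastomas against normal brain its 3 probe sets disagreed: the brightest gave 0.57 (limma adjusted p = 0.0841), the second −1.95 (limma adjusted p = 3.61e-08) and the third 0.65 (limma adjusted p = 0.004). That second probe set gave −0.02 between the tumours. Among the ligands, Slit2 fell against normal brain by 1.11 on the log2 scale in medulloblastomas (limma adjusted p = 0.0225) and by 1.77 in gliomas (limma adjusted p = 0.00288). The fall was not uniform, as medulloblastoma C5 (276.9) and glioma C3 (203.2) lay above every normal brain (highest 200.1). Normal brain Z2 was lowest of the normal brains at 8.8. Slit1 fell by 1.91 in medulloblastomas (limma adjusted p = 0.00423), with gliomas against normal brain at −1.37 (limma adjusted p = 0.0741). Slit1 was lowest among normal brains in Z2 (1.6), and the highest medulloblastoma, A3 (209.4), lay above every normal brain.

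**Figure D3:**
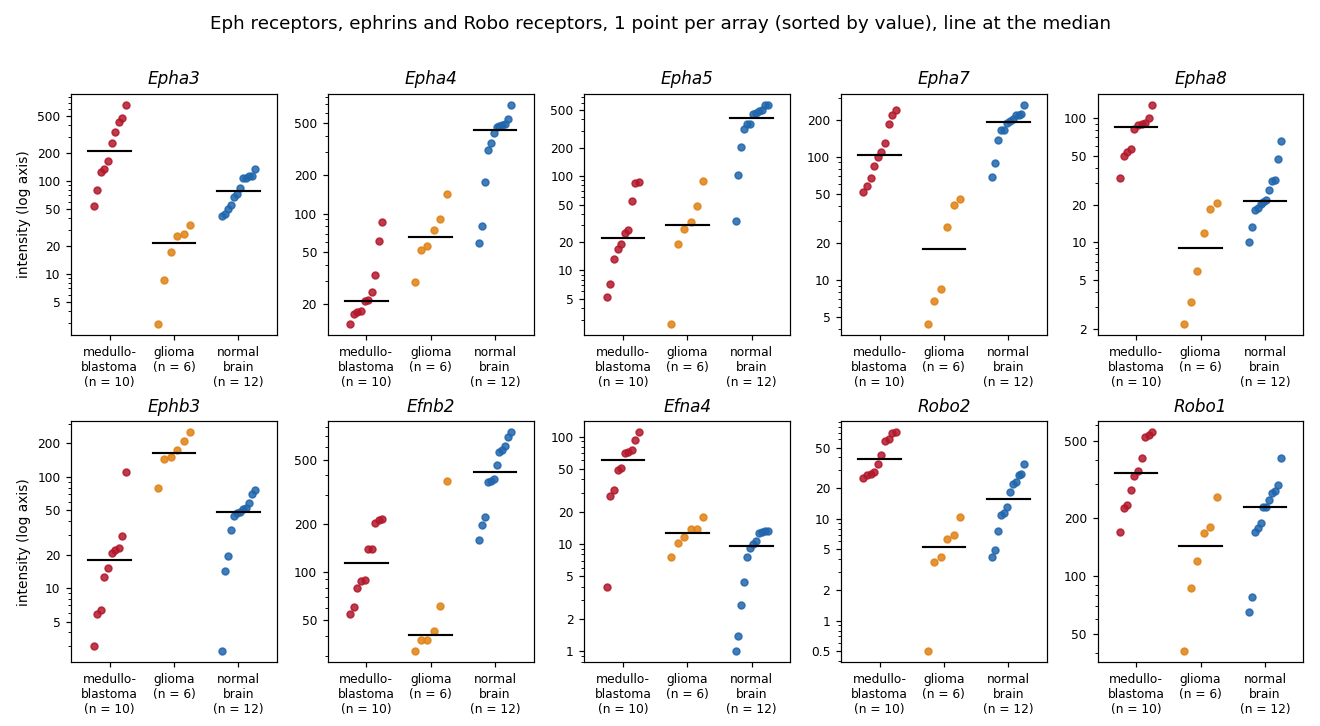
Intensity on a log axis of 6 Eph receptors, 2 ephrins and 2 Robo receptors, with 1 point per array and a line at the median of 10 medulloblastomas (red), 6 gliomas (orange) and 12 normal brains (blue). The gliomas lie below all other arrays for Epha3 and Epha7 and above all normal brains for Ephb3, and 1 glioma (371) stands apart for Efnb2.

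Levels of several marker lists moved with these differences. Of the 4 oligodendrocyte precursor markers, 4 were higher in gliomas against normal brain and 4 were lower in medulloblastomas against gliomas, the comparisons in which Sema3d, Plxnb3, Sema5b and Ephb3 differed. Of the 5 granule precursor markers, 4 were higher in medulloblastomas against normal brain and 4 against gliomas, where Sema7a, Epha3, Epha8 and Robo2 differed. All 4 mature neuron markers were lower in gliomas and 3 of 4 in medulloblastomas against normal brain, where Epha4, Epha5, Epha10 and Sema3a fell. In the same comparisons with normal brain, 5 of 5 oligodendrocyte markers were lower in both tumours, astrocyte markers were lower for 4 of 4 in medulloblastomas and 3 of 4 in gliomas, and choroid plexus markers for 3 of 4 and 4 of 4. Of the 3 forebrain neuron markers found, 2 were lower in medulloblastomas and 3 in gliomas, and 4 of 4 proliferation markers were higher in both. The astrocyte sum ran from 969 to 4452 in medulloblastomas, 883 to 6134 in gliomas and 5098 to 8889 in normal brains, and the proliferation sum from 2272 to 5898, 691 to 4206 and 21.3 to 662 in that order. Members were set beside a list because they differed in the same comparison, and other members were called there too. Against normal brain, 1 of 5 endothelial markers was lower in medulloblastomas, and 1 was higher and 1 lower in gliomas. Of 4 microglia markers, 1 was higher and 2 lower in medulloblastomas, and 1 was higher in gliomas. Of 4 fibroblast and mural markers, 0 and 1 were called, and of 3 cerebellar granule neuron markers, 1 and 0. The part of cell makeup in these results was not tested. Within each of the 2 title prefixes of the arrays (YZ and YZ2, whose meaning is not stated), all 40 called members in medulloblastomas against normal brain, all 36 in gliomas against normal brain and all 24 in medulloblastomas against gliomas kept the sign of their difference. Within YZ, 20, 22 and 15 of them were called, and within YZ2, 35, 24 and 13. The members were first called on all 28 arrays, which include those of each prefix, so the kept signs are not an independent check. No share of all genes is given here for either prefix, so these counts are not read as particular to the members. For Epha3 in medulloblastomas against normal brain, the difference was 2.05 within YZ (limma adjusted p = 0.0349) and 1.12 within YZ2 (limma adjusted p = 0.0552).

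Among the normal brains, members varied with the array. In the order B2, C5 and Z2, the arrays with high Gabra6, Sema6d read 1195, 1124 and 1175, against 431 to 653 in the other 9. Sema7a read 483, 750.3 and 734, against 167 to 366. Sema4g, a ligand of Plxnb2 in mouse cerebellum, read 88.9, 173 and 158, against 29.5 to 63. All 3 semaphorins were highest in these arrays. Epha5 read 202, 103 and 33.2, against 315 to 575 in the other 9 normal brains, and Efnb2 read 197, 159 and 220.5, against 366 to 745. Ephb6 read 42.2, 23.1 and 8.7, against 68.6 to 168. For these 3 and for Epha4 the same arrays were lowest. The members named here were picked because B2, C5 and Z2 lay at 1 end, and not every member followed. Plxnb2, for example, read 105 in B2 against 145 in C2. How many members or genes separate these arrays was not counted. The arrays were singled out by a measured value, so no test was run between them and the rest. Leaving them out changed 13 calls of members: in gliomas against normal brain Plxnc1 (−0.73, limma adjusted p = 0.0092), Sema6b (−0.90), Plxnd1 (−0.77), Nrp2 (−0.72), Sema3f (−1.21) and Efnb1 (−0.35) became lower and Sema6d (0.64, limma adjusted p = 0.00834) and Sema6a (0.59) higher, while Sema4d (0.41) lost its call. In medulloblastomas Sema4b (0.30) lost its call against normal brain, and against gliomas Efna3 (0.55) and Ephb6 (0.84) became higher and Sema6d (−0.59) lower.

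**Figure D4:**
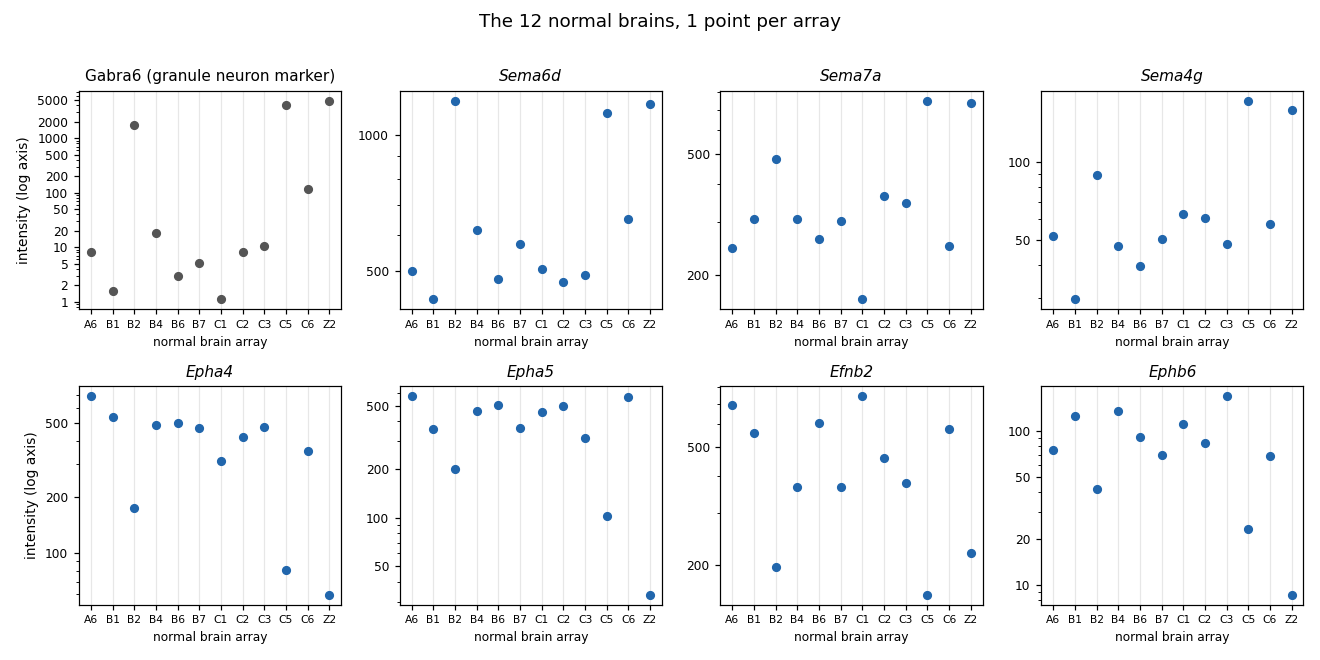
Intensity on a log axis in each of the 12 normal brains, by array code, for the granule neuron marker Gabra6 (grey) and 7 members (blue). Arrays B2, C5 and Z2, with Gabra6 at 1740 to 4918, are the highest for Sema6d, Sema7a and Sema4g and the lowest for Epha4, Epha5, Efnb2 and Ephb6.

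Other guidance genes were read from a list of 57 names, of which 53 were tested. In medulloblastomas against normal brain 20 were higher and 20 lower, in gliomas against normal brain 15 higher and 13 lower, and in medulloblastomas against gliomas 12 higher and 12 lower. Over all genes the shares were 32.2% and 32%, 28.4% and 25.5%, and 13.6% and 14.8%, so the counts against normal brain stood near the background. The largest rises in medulloblastomas against normal brain were Draxin (5.10), a secreted chemorepellent that binds netrin receptors, Dcc (2.98), a netrin receptor, and Mical1 (2.93), an oxidase that acts on actin below plexins. Draxin averaged 802 ± 354 in medulloblastomas (SD, n = 10), 54.8 ± 52 in gliomas (n = 6) and 22.4 ± 38.4 in normal brains (n = 12), with a limma adjusted p of 4.84e-11 for medulloblastomas against normal brain. The largest falls were Ngef (−4.06), an exchange factor that acts below Epha4, Unc5d (−3.47), a netrin receptor, and, level with each other, Rnd1 (−2.25), a small GTPase that binds plexins, and Cntn1 (−2.25), an adhesion molecule of axons. In gliomas against normal brain Ntn1 (2.43), a netrin, Dpysl3 (1.67), a cytosolic collapsin response mediator, and Rgma (1.43), a ligand of neogenin, rose most. Ntng1 (−3.36), Ngef (−3.28) and Unc5d (−3.06) fell most. Between the tumours Dcc (3.98), Draxin (3.83) and Cntn2 (3.30), an axonal adhesion molecule, were higher in medulloblastomas, and Cntn1 (−2.85), Unc5c (−1.79) and Sdc3 (−1.65) were lower.

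The Rictor comparisons set arrays against each other by their Rictor genotype label within a tissue. Whether mTORC2 was lost in these samples was not measured. Rictor itself ran from 68.8 to 235.8 in the 5 medulloblastomas labelled Rictor-null, against 260.8 to 276.8 in 2 heterozygous and 222.7 to 273.3 in 3 p53-null-only ones. In normal brain it ran from 213.3 to 443.9 in 5 arrays labelled Rictor-null, against 250.5 to 388.6 in 5 heterozygous ones, so its level did not separate those labels. Where the Rictor probes lie relative to the deleted exons is not stated in the labels. Its differences did not pass: −0.64 in Rictor-null against p53-null-only medulloblastomas (limma adjusted p = 0.981), −0.74 against heterozygous ones (limma adjusted p = 1) and −0.05 in Rictor-null against heterozygous normal brain (limma adjusted p = 1). At a limma adjusted p under 0.05, 0 of 54 members were called in Rictor-null against p53-null-only medulloblastomas, in Rictor-null against heterozygous medulloblastomas or in Rictor-null against heterozygous normal brain. Over all genes 1, 1 and 0 were called, or 0.00718%, 0.00718% and 0%. At an unadjusted p under 0.05 the members numbered 4, 1 and 3, and all genes 605, 199 and 439. With no filter on dim genes 0 of 58 members were called as well, and the share of all genes was 0.0055% in each of the medulloblastoma comparisons.

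The members with the smallest p are given as not passing. Efnb2 read 139.4, 87.7, 203, 210.3 and 214 in Rictor-null medulloblastomas (C1, C2, C4, C5 and C6), against 60.5, 54.7 and 79 in p53-null-only ones (A3, A5 and A6). The groups did not overlap, and heterozygous B4 and B6 read 88.7 and 139. Its log2 difference was 1.26 (SE 0.33, limma adjusted p = 0.909), with an unadjusted limma p of 0.00261. Sema3a (1.13 (SE 0.35, limma adjusted p = 0.981)) and Plxna2 (0.79 (SE 0.31, limma adjusted p = 0.981)) followed. Sema3a ran from 25.3 to 77.8 in Rictor-null medulloblastomas, against 13.4 to 20.3 in p53-null-only ones, and Plxna2 from 101.9 to 269 against 78.6 to 81.6. The 3 genes were picked by their p on these same arrays, so the gaps between the groups add no evidence beyond it. How many of all genes separate the 5 Rictor-null from the 3 p53-null-only tumours was not counted. C6 was highest for each of the 3 genes. In Rictor-null against heterozygous medulloblastomas the smallest p fell to Sema3f (−1.53 (limma adjusted p = 1)), Robo1 (−0.72 (limma adjusted p = 1)) and Sema6c (−0.77 (limma adjusted p = 1)). In Rictor-null against heterozygous normal brain they were Plxna3 (0.32 (limma adjusted p = 1)), Ephb3 (−0.70 (limma adjusted p = 1)) and Sema3d (−0.66 (limma adjusted p = 1)). Plxna3 ran from 68.2 to 97.3 in Rictor-null normal brains, against 55.8 to 65.4 in heterozygous ones, with the highest value in C5. Set against each other, the Rictor-null minus heterozygous differences of medulloblastoma and of normal brain were called unlike for 0 members, with 1 at an unadjusted limma p under 0.05, and for 0 of all genes, with 264 unadjusted. The gliomas held 1 Rictor-null array and were not compared by genotype.

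**Figure D5:**
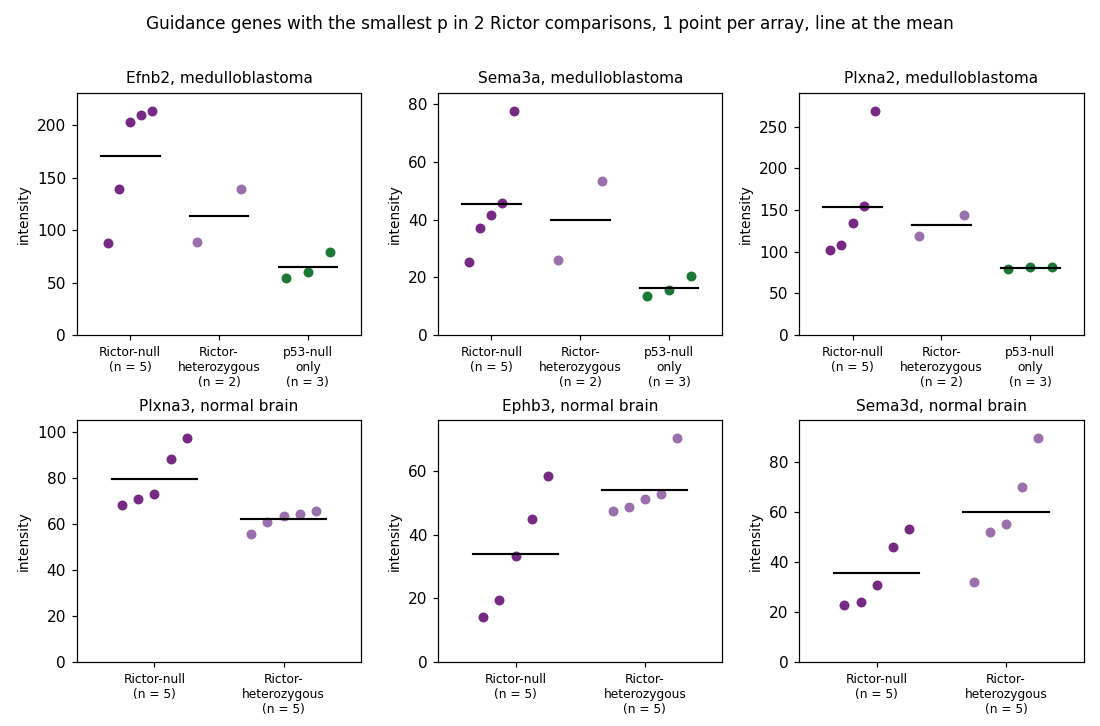
Intensity by Rictor genotype for the 3 members with the smallest p in Rictor-null against p53-null-only medulloblastomas (top) and in Rictor-null against heterozygous normal brain (bottom), with 1 point per array and a line at the mean. Rictor-null medulloblastomas lie above the 3 p53-null-only ones for Efnb2, Sema3a and Plxna2, genes picked by p on these same arrays. None of the 6 differences passed adjustment over all genes.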

How the data were processed

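RNA of 28 mouse brain tumours and brains was measured on Affymetrix Mouse 430 2.0 arrays. The deposited values are linear intensities of 45101 probe sets, made by the authors with MAS5 and GCOS, per the submitters' processing notes (tool versions and the genome build: not given in the sources used here). On each array their mean, trimmed by 2% at each end, was 100, and the array medians ran from 18.8 to 27.8. No detection calls were used. Precision is limited by how many arrays each group has. Of the design's 22 medulloblastomas, 6 gliomas and 24 brain samples, 10, 6 and 12 arrays were analysed here.

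Control probe sets (64) were left out. The platform annotation gave 1 symbol for 34945 probe sets and several for 932, which were not named. The brightest probe set by mean stood for each of 18193 genes. No symbol had a newer form in the RefSeq table. Log2(intensity + 6.3) was tested with limma 3.58.1 (lmFit, eBayes with trend) in R 4.3.3, over genes above the 30th percentile of mean log2 (3.885). Tissue comparisons used all 28 arrays with genotype as a term. Rictor comparisons were fitted within medulloblastoma and within normal brain. P-values were Benjamini-Hochberg adjusted over all 13931 genes tested, or over all probe sets where a second or later probe set is given. The fits were tested on simulated data. Means are over all arrays of a tissue. Wild-type Z2 has a genotype level of its own and adds nothing to the fitted tissue differences.

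Codes recurring in a tumour and a normal brain are not stated to pair them and were not used as pairs. Members, gene lists and tests were chosen with earlier results of these data known, and the difference between Rictor effects was added after seeing the data. Named genes were the 6 called members with the largest difference in each direction of each tissue comparison, and the 3 with the smallest p in each Rictor comparison. Other members stand as the remainder of their family. Alternatives were other pseudocounts, filters, scalings, probe set choices and title prefixes, a block by code, and leaving out arrays.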

Additional observations from a re-analysis of the deposited data

Results flagged for a closer look

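In 9 of the 44 groups of named members examined, 1 array stood apart from the rest of its tissue by Dixon's criterion. All 9 were tumour arrays, and normal brains are not covered here. The criterion was applied to linear intensities and is set to flag about 1 in 20 groups of normally distributed values by chance. Linear intensities need not be so distributed and the groups share arrays, so 9 of 44 cannot be weighed against that rate. Among gliomas, Efnb2 read 371.1 in B2, with the next array at 61.1, and Epha10 read 47.3 in B3, with the next at 10.2. Medulloblastoma C6 was apart for Sema4f at 743.8, with the next at 265, and for Sema6a at 254, with the next at 136.8. Medulloblastoma A6 was apart for Ephb3 at 110.1, with the next at 29.2, and for Sema5b at 73.9, with the next at 31.9. The others were Epha10 in medulloblastoma C1 at 28.9 (next 14.2), Plxnb3 in medulloblastoma C2 at 164.5 (next 91.2) and Sema3d in medulloblastoma C4 at 103.4 (next 55.5). The cause of these values was not tested.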

How the results depend on the processing

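Most calls of the named members held under the alternatives run. In medulloblastomas against normal brain, Sema6a turned to −0.21 with the second brightest probe set (limma adjusted p = 0.43), and Epha3 lost its call within YZ2 (1.12). In gliomas against normal brain, Ephb3 (1.44) and Sema5b (1.07) lost theirs within YZ and Sema4f (−1.48) within YZ2. Between the tumours, Epha7 (1.57) and Sema4f (1.46) lost theirs within YZ2, and Epha4 did under 10 alternatives (−1.32 to −0.63). With the second brightest probe set, which 38 tested members have, 7 members were higher in medulloblastomas against normal brain and 7 against gliomas. These 38 are a smaller set than the 54 of the main counts. Of 27 called members with several probe sets, the second made the same call for 19 in medulloblastomas against normal brain. It was not called for 7 and opposite for 1. In gliomas against normal brain it made the same call for 21 of 27, with 5 not called and 1 opposite. Between the tumours it did so for 11 of 17, with 6 not called. Within YZ alone 9 were higher and 11 lower in medulloblastomas against normal brain, 4 higher in gliomas against normal brain, and 9 higher in medulloblastomas against gliomas, which were 8 within YZ2; these fits hold fewer arrays. Leaving out each array in turn gave 14 to 17 higher and 23 to 25 lower in medulloblastomas against normal brain, 10 to 14 and 23 to 27 in gliomas against normal brain, and 14 to 19 and 6 to 8 in medulloblastomas against gliomas. The Rictor comparisons called 0 members in every alternative run. Shares of all genes called under these alternatives are not given here, so moved counts are not read as particular to the members.

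With the array code as a random replicate block, the higher and lower counts were 16 and 24, 12 and 25, and 17 and 7 in the same order. As a fixed replicate block they were 15 and 22, 8 and 19, and 6 and 5. The shares of all genes called with a block are not given here either. Of the 11 pairs of samples with 1 code, 7 had a correlation of deviations over 0.1 (all 11 ran from −0.118 to 0.352, with a consensus of 0.199), and 9 of the 22 samples correlated best with their own code. The codes are not stated to pair samples, so whether they do remains unknown.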
